A study of Homo sapiens with 55 samples.

Results

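The comparison described here is between human embryonic kidney cells collected 1 h after vehicle and the same cells collected at 0 h. Neither received the drug of the wider study. The comparison rests on 15 of the 55 arrays of the series, all those labelled as controls at 1 h or 0 h. SCL60 controls had 3 arrays at 1 h and 4 at 0 h, and HEK293 controls had 4 arrays at each time. The wider study applied 100 nM triptorelin, an agonist of gonadotropin-releasing hormone (GnRH) receptors, for up to 24 h, with a 20% propylene glycol solution as the vehicle. HEK293 is a line derived from human embryonic kidney in which the labels call the receptor undetectable. SCL60 was made from it by stable transfection with a rat GnRH receptor and was kept in G418. Both lines were grown in medium with serum on plates coated with Matrigel, so all 4 groups share these conditions. Controls at both times carry the same vehicle entry, 20% propylene glycol. The labels do not say whether the 0 h cultures received it before collection. It is therefore not known whether vehicle differed between 0 h and 1 h. Any parts of vehicle, handling and time since the start cannot be told apart. Nothing in the labels says that replicates were separate cultures. The p-values therefore measure the spread between arrays of a group, pooled over all 55 arrays, which may be technical.

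Immediate early genes are transcribed within minutes of a stimulus from factors already present in the cell, without new protein synthesis. Many encode transcription factors, such as members of the EGR and FOS families, and others encode secreted proteins or phosphatases that switch off the kinases that induced them. Serum response factor (SRF), which binds the CArG box, and the TEAD factors, whose partner YAP responds to cell shape and adhesion, are well known regulators of such genes.

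Between 1 h and 0 h controls, averaged over both lines, 7 of 14794 probes tested passed an adjusted p of 0.05 (0.0473%), 6 rising and 1 falling. The transcripts that rose were those of EGR1, FOS and FOSB, which are transcription factors, DUSP5, a phosphatase of ERK kinases in the nucleus, and CCN1 and CCN2, secreted proteins of the extracellular matrix. EGR1 rose most, 6.82-fold, and CCN1 rose 4.08-fold. C2orf42 fell by 0.43 on the log2 scale. The test was limma's moderated test with the Benjamini-Hochberg adjustment over all probes. Its estimate of spread came from all 55 arrays of the series. With only the 15 control arrays fitted, EGR1, CCN1 and DUSP5 alone of these 7 passed. FOS and FOSB then did not (limma adjusted p 0.276 and 0.273). The median log2 difference over all probes was -0.00, and the 5th and 95th percentiles were -0.23 and 0.22. Of the probes tested, 7 differed by more than 2-fold and all of them were higher at 1 h, namely the 6 that passed and a second CCN2 probe.

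Same-numbered arrays of a line tended to deviate together, though those of SCL60 replicate 4 hardly did. A fit with the replicate number as a block called 13 probes rising and 2 falling, the 7 above among them. That block gives each number the same effect in both lines. Without the block, 312 probes (2.11%) had an unadjusted p under 0.05, of which 164 were higher at 1 h and 148 lower. That share is below the one expected on average if no probe changed. The fit without the block does not use the replicate numbers.

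Of the called genes, the 250 bases before the transcript start of EGR1, CCN2, FOS and FOSB were searched for motifs (RefSeq, GRCh38.p14), and the sequence is shown for EGR1 and CCN2, the 2 of these 4 with a match. The motifs were the CArG box, TGACGTCA (bound by CREB), TGANTCA (bound by AP-1) and GGAATG (the core bound by TEAD factors), on both strands, and no match overlapped another. The EGR1 stretch is chr5:138465229-138465478 on the plus strand, and the CCN2 stretch is chr6:131951373-131951622 on the minus strand. Capitals mark the matches.

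EGR1: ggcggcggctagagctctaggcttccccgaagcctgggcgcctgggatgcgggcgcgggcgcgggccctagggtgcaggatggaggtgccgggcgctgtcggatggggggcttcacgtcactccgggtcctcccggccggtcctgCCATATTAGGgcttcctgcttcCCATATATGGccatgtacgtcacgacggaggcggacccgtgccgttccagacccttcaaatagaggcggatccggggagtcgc

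CCN2: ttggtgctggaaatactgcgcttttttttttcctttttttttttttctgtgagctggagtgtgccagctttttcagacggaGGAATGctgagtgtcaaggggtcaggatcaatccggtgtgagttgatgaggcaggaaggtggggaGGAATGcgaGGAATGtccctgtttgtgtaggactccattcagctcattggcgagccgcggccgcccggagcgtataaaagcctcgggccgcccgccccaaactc

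The capitals in EGR1 are 2 CArG boxes and those in CCN2 are 3 copies of GGAATG, all within 169 bases of the start. FOS and FOSB had none of these letters in the same window, and sequence further upstream was not searched for any gene. CCN1, DUSP5 and C2orf42 were not searched. Of 35116 promoter windows of this length, 1.16% held a CArG box, 1.65% TGACGTCA, 6.57% TGANTCA and 11.9% GGAATG. Such matches describe the sequence and do not show that a factor was bound.

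EGR1 encodes a zinc finger transcription factor. Its log2 normalised intensity was 9.11, 12.35 and 11.74 in SCL60 cells at 1 h, against 8.22, 7.92, 9.58 and 8.03 in SCL60 cells at 0 h. HEK293 cells had 11.20, 10.23, 11.67 and 11.35 at 1 h, against 7.30, 7.89, 9.78 and 7.84 at 0 h. The groups did not overlap in HEK293. In SCL60 the lowest 1 h array, replicate 2, lay below the highest 0 h array, replicate 3. The mean difference was 2.77 (SE 0.37, limma adjusted p 9.08e-06). EGR1 was higher at 1 h in 7 of 7 same-numbered pairs, by 1.19 to 3.89. Here and below, pair counts and overlap come from the arrays that gave the calls, so they describe the calls and do not test them. The share of all probes with such pairs or groups was not counted.

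FOS, which pairs with JUN proteins to form AP-1, measured 5.64, 8.27 and 7.46 (log2 intensity) in SCL60 cells at 1 h, against 5.53, 5.59, 6.27 and 5.29 at 0 h. In HEK293 cells it measured 7.58, 6.32, 7.75 and 8.20 at 1 h, against 5.04, 5.64, 6.82 and 5.18 at 0 h. The groups overlapped in both lines. FOS was detected on 2 of 3 SCL60 and 4 of 4 HEK293 arrays at 1 h, and on 2 of 4 and 1 of 4 at 0 h, so its baseline lay near background. It rose 3.08-fold by the fit (log2 difference 1.62, SE 0.27, limma adjusted p 0.000619). It was higher at 1 h in 7 of 7 pairs, although replicate 2 of SCL60 differed by only 0.05.

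FOSB, another AP-1 subunit, measured 6.83, 9.33 and 7.06 (log2 intensity) in SCL60 cells at 1 h, against 5.86, 6.22, 6.01 and 5.86 at 0 h. HEK293 cells had 6.39, 6.52, 7.16 and 6.49 at 1 h, against 5.57, 6.01, 5.81 and 5.30 at 0 h. Neither line's groups overlapped, and SCL60 replicate 3 at 1 h stood far above its fellows. FOSB rose 2.57-fold, a log2 difference of 1.36 (SE 0.23, limma adjusted p 0.00116). Without that array the log2 difference was 0.96 (adjusted p 0.0348). At 0 h it was detected on 4 of 4 SCL60 and 2 of 4 HEK293 arrays.

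DUSP5 measured 6.71, 8.01 and 7.07 (log2 intensity) in SCL60 cells at 1 h, against 5.53, 5.72, 5.65 and 5.62 at 0 h. HEK293 cells had 6.54, 6.96, 7.44 and 6.72 at 1 h, against 5.09, 5.51, 6.11 and 5.85 at 0 h. The groups did not overlap in either line, and every pair was higher at 1 h, by 0.88 to 2.36. DUSP5 rose 2.74-fold, a log2 difference of 1.45 (SE 0.19, limma adjusted p 9.08e-06). It passed the test in each line alone as well. At 0 h it was detected on 3 of 4 SCL60 and 2 of 4 HEK293 arrays.

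CCN1, also known as CYR61, had log2 intensities of 9.57, 10.66 and 9.06 in SCL60 cells at 1 h, against 6.49, 7.24, 7.39 and 7.26 at 0 h. HEK293 cells had 8.65, 9.15, 9.89 and 8.53 at 1 h, against 6.76, 7.62, 8.23 and 8.06 at 0 h. The groups did not overlap in either line. The mean difference was 2.03 (SE 0.29, limma adjusted p 2.89e-05), and the pairs differed by 0.47 to 3.27, all in the same direction. The smallest difference was in HEK293 replicate 4.

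CCN2, also known as CTGF, had log2 intensities of 9.54, 9.10 and 8.06 in SCL60 cells at 1 h, against 6.47, 7.82, 6.63 and 6.69 at 0 h. HEK293 cells had 8.05, 9.48, 9.09 and 8.45 at 1 h, against 6.33, 7.85, 7.51 and 7.93 at 0 h. On this probe all 1 h arrays of a line lay above its 0 h arrays, and replicate 2 was the highest array at 1 h in both lines. CCN2 rose 3.21-fold, a log2 difference of 1.68 (SE 0.36, limma adjusted p 0.0463). A second CCN2 probe differed by 1.73 (SE 0.38, limma adjusted p 0.0606). Its groups overlapped in HEK293, where the lowest 1 h value was 7.78 and the highest 0 h value 7.83. With the replicate block, the adjusted p was 9.36e-08 for the first probe and 4.75e-07 for the second. The first probe's call without the block was kept when 5 of the 15 arrays were left out singly, namely replicate 2 and replicate 4 of the HEK293 0 h controls, replicate 1 of the HEK293 1 h controls, replicate 2 of the SCL60 0 h controls and replicate 4 of the SCL60 1 h controls. Leaving out any of the other 10 ended it, at adjusted p-values of up to 0.224.

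C2orf42 had log2 intensities of 7.06, 7.13 and 6.92 in SCL60 cells at 1 h, against 7.51, 7.57, 7.41 and 7.66 at 0 h. HEK293 cells had 7.06, 7.32, 7.37 and 7.11 at 1 h, against 7.44, 7.48, 7.57 and 7.80 at 0 h. It was lower at 1 h in 7 of 7 pairs with no overlap in either line (log2 difference -0.43, SE 0.09, limma adjusted p 0.0359). The pairs and groups are those of the test itself and add no further test. The call was kept without replicates 1 or 2 of the HEK293 0 h controls, replicates 2 or 3 of the HEK293 1 h controls or replicate 3 of the SCL60 0 h controls. It was lost without any of the other 10 arrays, at adjusted p-values of up to 0.174.

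**Figure D1:**
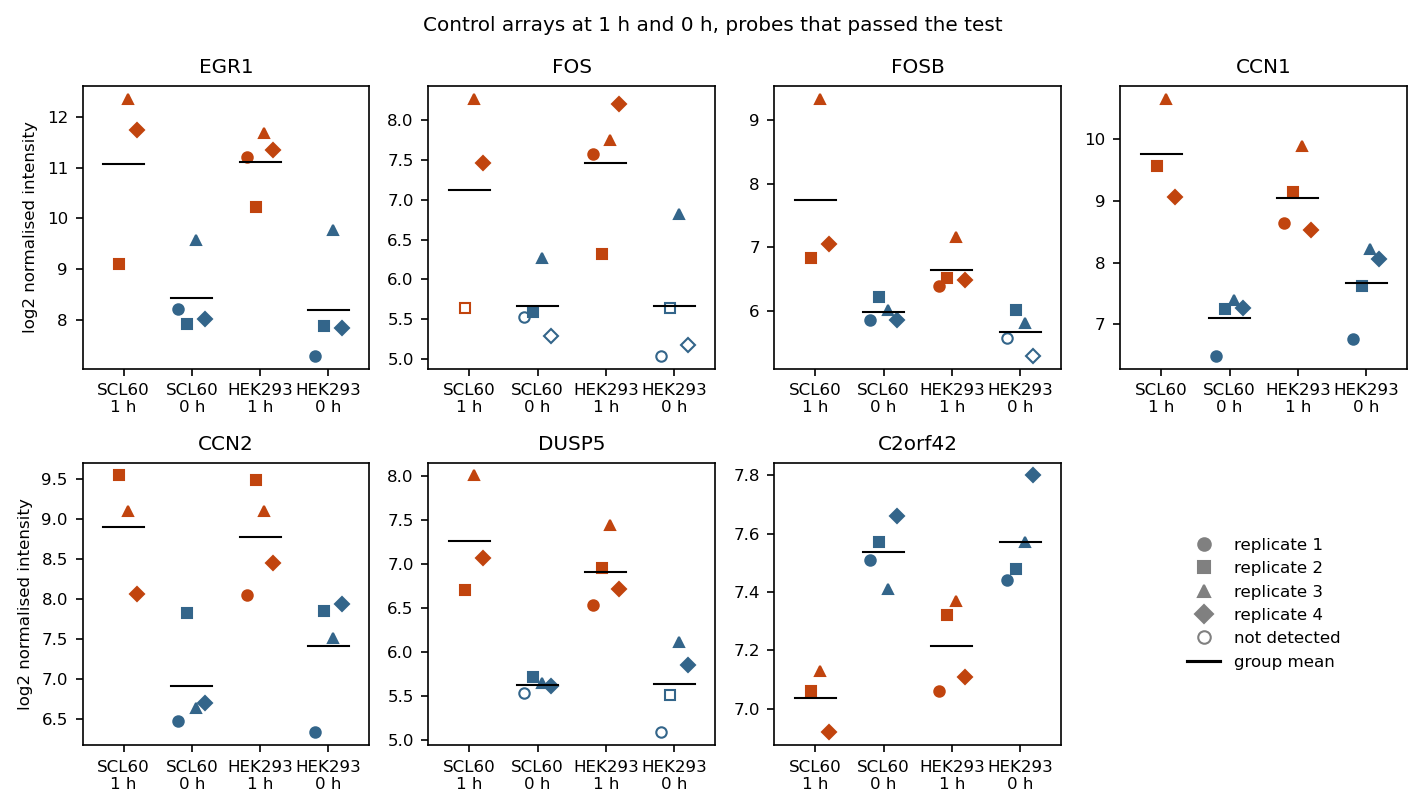
Log2 normalised intensity (vertical axis) of the 7 probes that passed the test, for each control array of SCL60 and HEK293 at 1 h and 0 h. The probes were chosen by their difference between the times on these same arrays. Symbols give the replicate number, open symbols arrays on which the probe was not detected, and lines the group means; the 1 h groups of EGR1 and FOS in SCL60 and of FOS in HEK293 overlap their 0 h groups, and the other groups do not.

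The arrays were hybridised in 2 batches, each of which held both times of both lines. EGR1 differed by 2.03 within batch 1 and by 4.13 within batch 2, as the mean of both lines on the log2 scale. FOS differed by 0.96 in batch 1 and 2.78 in batch 2, and FOSB by 1.07 and 2.08. For CCN1 the values were 1.77 in batch 1 and 2.81 in batch 2, and for DUSP5 they were 1.32 and 1.96. CCN2 differed by 1.83 in batch 1 and 1.94 in batch 2, and C2orf42 by -0.41 and -0.38. All 7 probes had the same direction in both batches. The batches are parts of the arrays on which the probes were called, so this describes the calls and does not test them. The mean of both lines was larger in batch 2 for all 6 rising genes, though for CCN2 by little. In batch 2 the SCL60 1 h group was replicate 3 alone and the HEK293 0 h group replicate 1 alone.

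In SCL60 alone, 3 probes passed the test (0.0203% of those tested), CCN1 (log2 difference 2.67, SE 0.42, limma adjusted p 0.00115), DUSP5 (1.63, SE 0.28, adjusted p 0.00324) and FOSB (1.75, SE 0.34, adjusted p 0.0238). EGR1 differed by 2.63 (SE 0.54, adjusted p 0.0502), CCN2 by 2.00 and FOS by 1.45. With the replicate block 6 probes passed, and EGR1 was among them (2.56, adjusted p 0.000147). Replicates 2 and 3 at 1 h decided much of this. Without replicate 3, no probe passed, and the log2 difference was 2.22 for CCN1 (adjusted p 0.248), 1.26 for DUSP5 (adjusted p 0.862) and 0.96 for FOSB (adjusted p 1.00). Without replicate 2, 5 probes passed, and EGR1 differed by 3.61 (adjusted p 0.000415) and FOS by 2.19 (adjusted p 0.00220). FOSB also lost its call without replicate 1 (adjusted p 0.133), 3 (0.0637) or 4 (0.131) of the SCL60 0 h controls, at log2 differences of 1.71 to 1.76. EGR1 also passed without replicate 3 of the 0 h controls (3.01, adjusted p 0.0134).

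In HEK293 alone, 3 probes passed (0.0203%), EGR1 (2.91, SE 0.50, limma adjusted p 0.00747), FOS (1.79, SE 0.36, adjusted p 0.0493) and DUSP5 (1.28, SE 0.26, adjusted p 0.0493). CCN1 differed by 1.39 (SE 0.39), CCN2 by 1.36 (SE 0.49) and FOSB by 0.97 (SE 0.32), and none of these passed. With only the control arrays at 0 h and 1 h fitted, no probe passed. The replicate block gave 7 calls, with CCN1 (adjusted p 0.00137) and CCN2 (adjusted p 0.00417) among them. Without the block, the EGR1 and FOS calls were kept only without replicate 3 of the 0 h controls or replicate 2 of the 1 h controls. The DUSP5 call was kept only without replicate 3 of the 0 h controls. Over the 8 single omissions the log2 difference of EGR1 ran from 2.61 to 3.44, that of FOS from 1.55 to 2.18 and that of DUSP5 from 1.09 to 1.44. The adjusted p-values reached 0.187 for EGR1 and 1.00 for FOS and DUSP5.

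No probe passed the test of the difference between the lines (lowest limma adjusted p 1.00), with or without the replicate block. An unadjusted p under 0.05 was found for 63 probes (0.426%). That share is below the one expected on average if no probe differed. The log2 difference of CCN1 was 1.28 larger in SCL60 (95% interval 0.12 to 2.44, unadjusted p 0.0307), which fails the adjustment. For FOSB the difference was 0.78 (-0.15 to 1.72) and for CCN2 it was 0.64 (-0.80 to 2.08). For EGR1 it was -0.28 (-1.77 to 1.21) and for FOS -0.34 (-1.41 to 0.73). The difference for DUSP5 was 0.35 (-0.41 to 1.12) and for C2orf42 it was -0.14 (-0.50 to 0.22). These intervals are wide and do not show that the lines act alike. Across all 14794 probes, which are not independent replicates, the log2 differences of the lines correlated weakly (Pearson's r 0.31, Spearman's rho 0.26). The lines share no array, but they do share hybridisation and labelling batches.

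**Figure D2:**
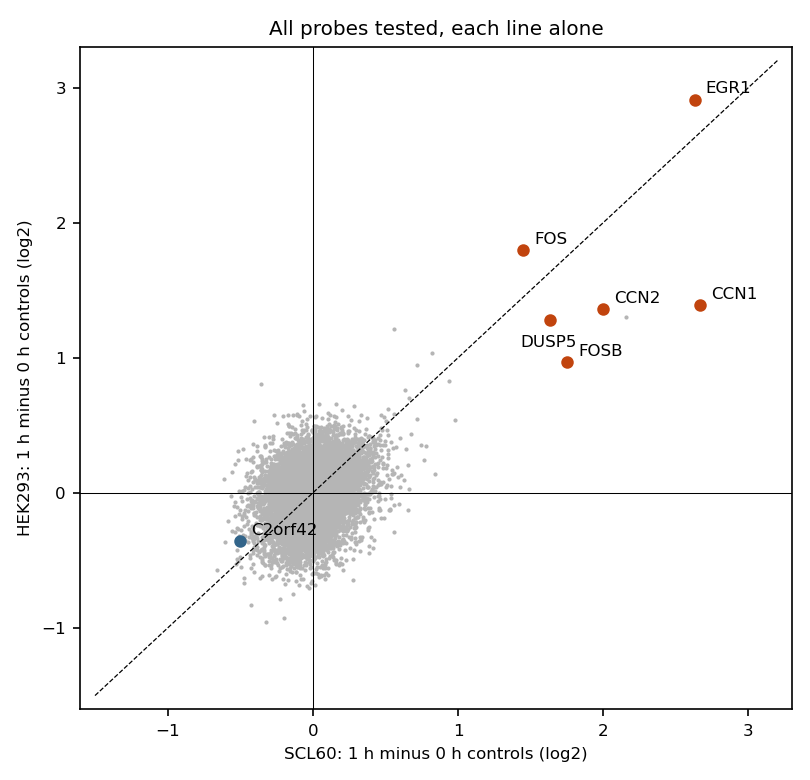
Log2 difference between 1 h and 0 h controls in SCL60 (horizontal axis) and in HEK293 (vertical axis) for the 14794 probes tested. Called probes are large and labelled, the dashed line marks equal differences, and the 6 that rose lie at the upper right with the second CCN2 probe, a small point beside CCN2, while C2orf42, at -0.50 in SCL60 and -0.36 in HEK293, lies at the edge of the other probes.

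Several further genes missed the threshold in the main fit, which has no block, and passed with the replicate block. They are named here after their values were seen. ADM and ZNF606 also passed with cyclic loess and no block. On leaving out certain single arrays without a block, ADM, ARC, ID1 and ZNF606 passed. All of them also passed with the labelling batch as a block, but that batch largely follows the replicate number. With the hybridisation batch as a block only DLL1 and ZNF606 of these genes passed, and with the chip as a block only ADM. ARC, a cytoskeletal protein of neurons induced by synaptic activity, differed by 0.89 with the block (limma adjusted p 0.00218) and by 0.93 without it (adjusted p 0.116). Its log2 intensity was 7.09, 7.68 and 7.42 in SCL60 cells at 1 h, against 6.26, 6.45, 6.63 and 6.97 at 0 h. In HEK293 cells it was 7.41, 6.38, 8.11 and 7.43 at 1 h, against 5.73, 6.39, 6.84 and 6.23 at 0 h. The SCL60 groups did not overlap, while HEK293 replicate 2 was no higher at 1 h than at 0 h.

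ID1, an inhibitor of basic helix-loop-helix transcription factors and a target of BMP signalling, differed by 0.67 with the block (limma adjusted p 0.0211) and 0.68 without it (adjusted p 0.0628). It measured 9.07, 9.03 and 8.94 (log2 intensity) in SCL60 cells at 1 h, against 8.13, 9.01, 8.13 and 8.13 at 0 h. HEK293 cells had 8.99, 8.35, 8.79 and 8.81 at 1 h, against 7.97, 8.32, 8.15 and 7.71 at 0 h. Replicate 2 had the highest 0 h value in both lines and hardly differed between the times. ID1 was nonetheless higher at 1 h in 7 of 7 pairs.

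SGK1, a kinase induced by serum, glucocorticoids and osmotic stress, differed by 0.56 with the block (limma adjusted p 0.0277) and 0.57 without it (adjusted p 0.0937), and its groups overlapped in neither line. DLL1, a Notch ligand, differed by 0.50 with the block (adjusted p 0.0211) and 0.52 without it (adjusted p 0.0628). ADM, the precursor of the vasodilator peptide adrenomedullin, differed by 0.41 with and without the block (adjusted p 0.0230 with it and 0.0628 without). SGK1 and DLL1 were higher at 1 h in 7 of 7 pairs and ADM in 6 of 7. ZNF606, a zinc finger protein, was lower in 7 of 7 pairs, by -0.61 with the block (adjusted p 0.0156) and -0.62 without it (adjusted p 0.0616). The groups of ADM and ZNF606 overlapped in HEK293 but not in SCL60, and those of DLL1 in neither line. The remaining block call was a probe with no gene symbol in the annotation, detected on 5 of the 15 arrays. These were 2 of 3 SCL60 and 3 of 4 HEK293 arrays at 1 h, and none at 0 h. The probe thus met the detection filter only through the 1 h arrays, where it was higher.

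**Figure D3:**
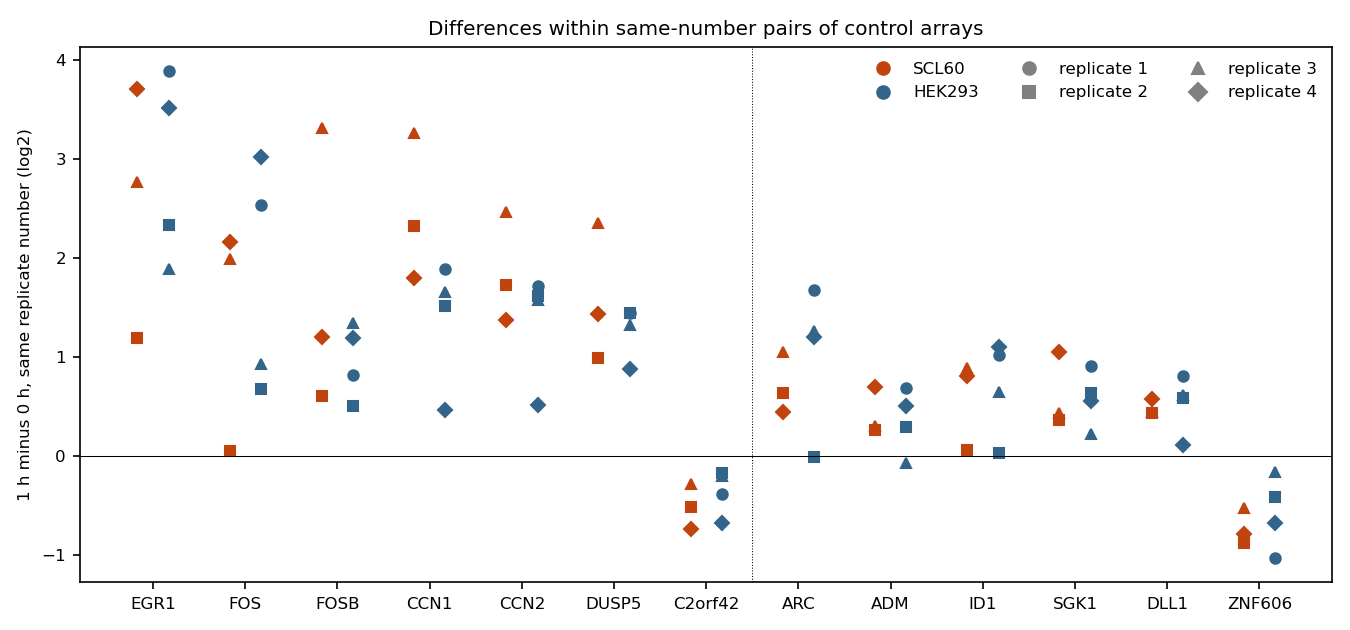
Log2 difference of 1 h minus 0 h in each of 7 same-numbered pairs of control arrays, 3 of SCL60 and 4 of HEK293, with symbols for the replicate number. The genes were chosen by their difference between the times on these same arrays. Genes left of the dotted line passed in the main fit without the replicate block. Those right of it missed the threshold there and passed with the block. The 6 rising genes on the left lie above 0 in 7 of 7 pairs.

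HEK293 cells given triptorelin for 1 h offer a further set of 4 arrays. They were set against the same 0 h arrays as the vehicle controls, so both comparisons share those arrays and the values are only placed side by side. The log2 difference of EGR1 from 0 h was 2.90 with triptorelin and 2.91 with vehicle. CCN2 differed by 1.55 with triptorelin and 1.36 with vehicle, CCN1 by 1.45 and 1.39, and FOS by 1.33 and 1.79. DUSP5 differed by 1.20 with triptorelin and 1.28 with vehicle, and FOSB by 1.01 and 0.97. C2orf42 differed by -0.08 with triptorelin and -0.36 with vehicle. EGR1 alone passed the test with triptorelin (0.00676% of probes, limma adjusted p 0.00806), and 5 probes passed with the replicate block. The EGR1 call was lost without replicates 1, 2 or 4 of the 0 h controls or replicate 3 of the treated arrays, at adjusted p-values of up to 0.200.

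Vehicle controls collected later are given as values with no test. In SCL60 at 8 h, CCN2 ran from 8.66 to 9.75 and CCN1 from 8.07 to 9.01 (log2 intensity), above all SCL60 0 h arrays of the same gene. ID1 at 8 h ran from 8.81 to 8.96. EGR1 ran from 7.83 to 8.56 at 8 h, FOS from 4.83 to 5.70, FOSB from 5.88 to 6.54 and DUSP5 from 5.46 to 5.83, within or close to the 0 h range of each. At 24 h CCN2 was between 6.09 and 7.43 in SCL60 and between 6.16 and 7.81 in HEK293. CCN1 at 24 h was between 6.58 and 7.47 in SCL60 and between 6.50 and 7.65 in HEK293, so the CCN transcripts were then at or below their highest 0 h values except for CCN1 in 1 SCL60 array. C2orf42 in SCL60 ran from 7.03 to 7.47 at 8 h and from 7.49 to 7.60 at 24 h.

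The levels in SCL60 cells given triptorelin are likewise given as values. At 1 h, FOSB was between 13.64 and 14.35 with triptorelin, against 6.83 to 9.33 with vehicle. FOS was between 11.52 and 11.81 with triptorelin, against 5.64 to 8.27 with vehicle. For CCN1 the ranges were 11.39 to 12.86 with triptorelin, against 9.06 to 10.66 with vehicle, and for DUSP5 they were 9.53 to 9.90, against 6.71 to 8.01. EGR1 overlapped, with 10.45 to 13.21 with triptorelin, against 9.11 to 12.35 with vehicle. CCN2 overlapped as well, with 8.80 to 11.73, against 8.06 to 9.54. C2orf42 was between 6.92 and 7.44 with triptorelin, against 6.92 to 7.13 with vehicle.

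**Figure D4:**
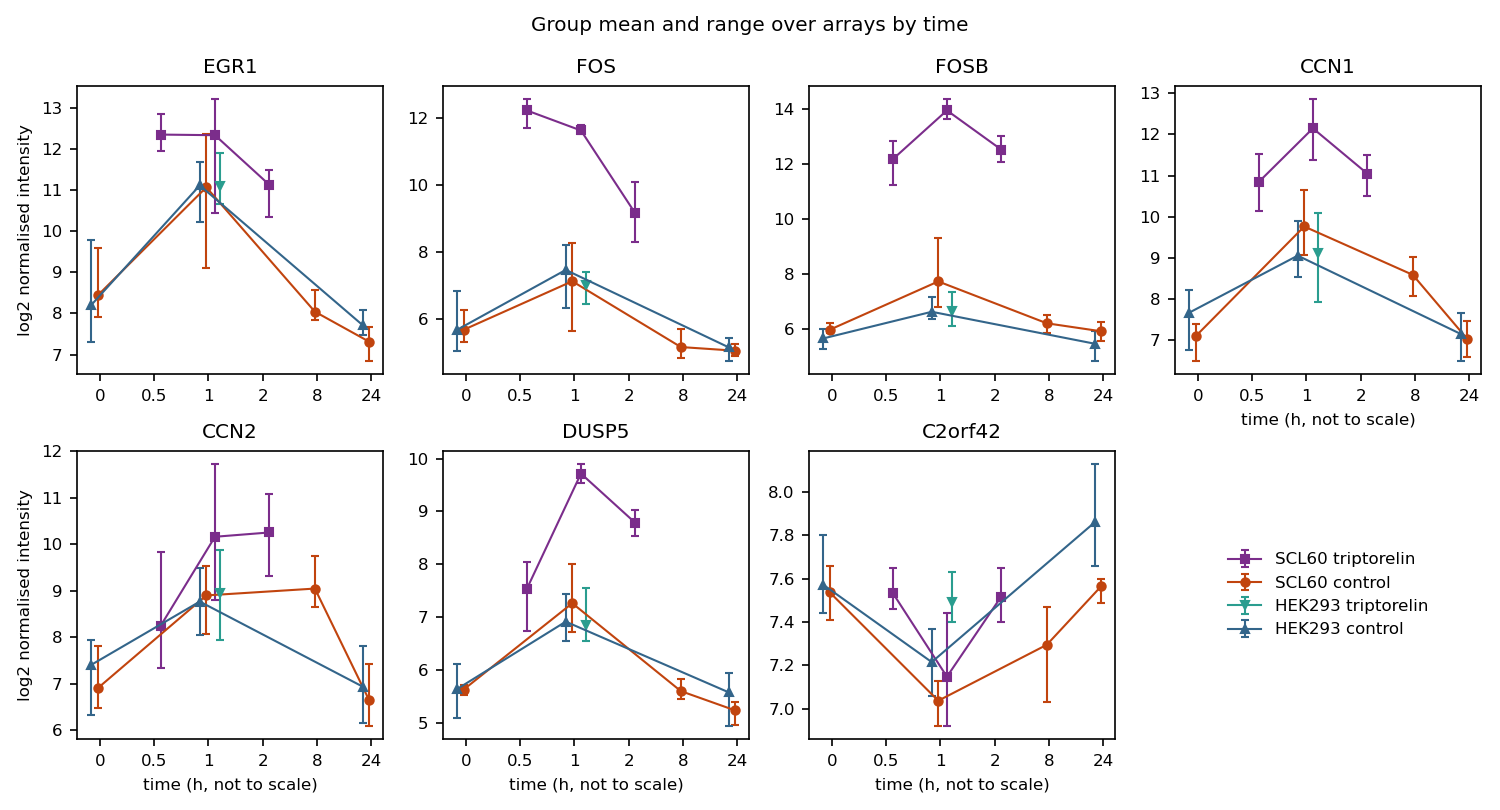
Group mean log2 normalised intensity of the 7 called probes at 0, 0.5, 1, 2, 8 and 24 h (horizontal axis, not to scale) for SCL60 and HEK293 cells given triptorelin or vehicle; bars give the lowest and highest array. In SCL60 controls at 8 h, CCN1 and CCN2 lie above their 0 h arrays, while EGR1, FOS, FOSB and DUSP5 lie near them.

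Of 19 immediate early transcription factor genes tested, 3 rose (EGR1, FOS and FOSB) and none fell. The list's median log2 difference was 0.28, against -0.00 over all probes, of which 6 rose (0.0406%) and 1 fell (0.00676%). In the list, 18 of 19 differences were above 0, against 7313 of 14794 over all probes. IER2, an immediate early nuclear protein, differed by 0.70 (SE 0.20, limma adjusted p 0.570), and was detected on 6 of 15 arrays. ATF3, a stress-induced member of the ATF family, differed by 0.44 (SE 0.15), EGR3 by 0.41 (SE 0.15) and JUN, the partner of FOS in AP-1, by 0.29 (SE 0.15). MYC differed by 0.26 (SE 0.11). None of these passed. MAFF, a small MAF protein, was the list's negative value (-0.07, SE 0.19).

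Among 9 feedback regulators of MAP kinase signalling, DUSP5 alone rose and the median was 0.27. DUSP1, a phosphatase of MAP kinases in the nucleus, differed by 0.50 (SE 0.18), IER3 by 0.41 (SE 0.19) and SPRY2, an inhibitor of receptor tyrosine kinase signalling, by 0.33 (SE 0.12). Those 3 did not pass (limma adjusted p 1.00 each). SPRED1, another inhibitor of RAS signalling, differed by -0.16 (SE 0.12).

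Of 11 genes listed as SRF or YAP/TEAD targets, CCN1 and CCN2 rose, none fell and the median was 0.00. RHOB, a small GTPase, differed by 0.34 (SE 0.18), while the actin genes ACTB and ACTG1 differed by -0.03 (SE 0.10) and 0.07 (SE 0.09). TPM1 and VCL, which encode tropomyosin and vinculin, differed by -0.04 (SE 0.10) and -0.05 (SE 0.15). Of 13 calcium and cAMP response genes, FOSB rose, and ARC joined it with the replicate block. The median there was 0.06, with RCAN1, an inhibitor of calcineurin, at 0.01 (SE 0.11).

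None of 11 TGF-beta, BMP and ID genes passed, and ID1 alone did with the block. Their median was 0.14, with SMAD7 at 0.36 (SE 0.17), ID2 at 0.32 (SE 0.12) and ID3 at 0.07 (SE 0.13). None of 10 genes of the NF-kappaB pathway and its cytokines passed (median 0.24), and the largest difference was 0.46 (SE 0.15, limma adjusted p 1.00) for NFKBIZ, a nuclear regulator of NF-kappaB.

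None of 16 heat shock genes passed, all of them lying between -0.19 (CHORDC1) and 0.16 (DNAJB1) with a median of 0.04. None of 21 genes of the unfolded protein and integrated stress response passed (median 0.00), with DDIT4, an inhibitor of mTORC1, lowest at -0.47 (SE 0.26). Of 8 osmotic stress genes none passed, and SGK1 did with the block. CIRBP, a cold-inducible RNA-binding protein, differed by 0.26 (SE 0.16) and NFAT5, the transcription factor of the hypertonic response, by 0.00 (SE 0.34). Of 12 oxidative stress and metal genes none passed, with the metallothioneins MT2A at 0.31 (SE 0.19) and MT1X at 0.25 (SE 0.23). Of 17 hypoxia and glycolysis genes none passed, and ADM did with the block.

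Of the remaining lists none had a member that passed, with or without the block. Members with the largest differences were ZFP36L1 (-0.34) and ZFP36 (0.26) among mRNA decay regulators, FGF2 (0.24) and VEGFA (0.23) among growth factors, and DEPP1 (0.46) and KLF6 (0.35) among growth arrest genes. CASP8 (-0.38) and MCL1 (0.34) led the apoptosis regulators, and MDM2 (-0.30) and PPM1D (-0.25) the p53 targets. Cell cycle members stayed small, with E2F3 (-0.20) and PCNA (-0.19) for G1/S and CCNB1 (-0.23) and NDC80 (-0.23) for G2/M. CYP51A1 (-0.31) and LSS (0.22) headed sterol synthesis, NDUFS1 (-0.26) and SDHD (-0.21) oxidative phosphorylation, and UBTF (0.23) and RRP12 (0.20) ribosome biogenesis. The interferon list had IFI27 (0.36) and OAS3 (0.26), the histones H2AC6 (-0.27) and H2AC18 (0.23), the noncoding genes SNHG15 (0.20) and SNHG5 (0.15), and the glucose-responsive genes ARRDC4 (0.14) and KLF10 (0.07).

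**Figure D5:**
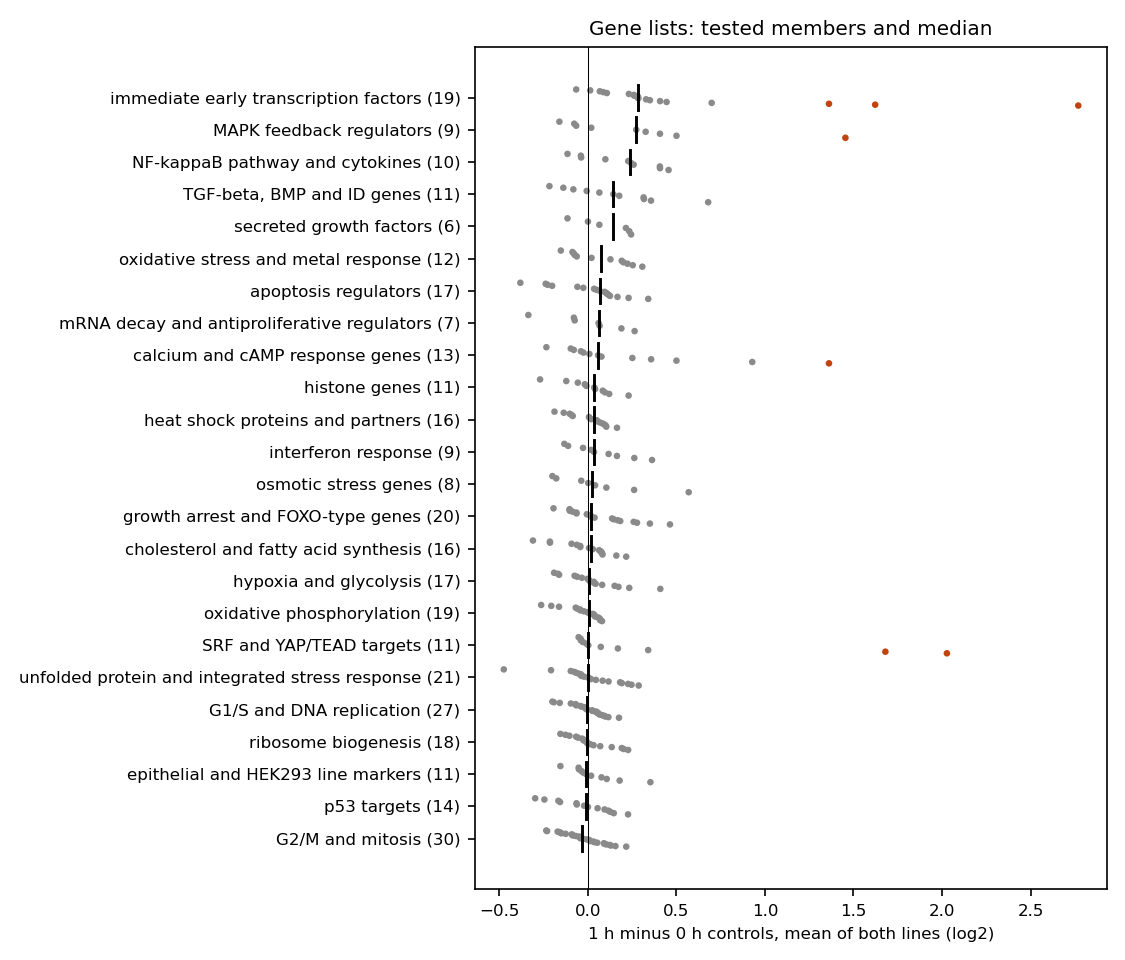
Log2 difference between 1 h and 0 h controls, as the mean of both lines (horizontal axis), of each tested member of the gene lists with at least 5 tested members; vertical bars are list medians and red points passed the test. The number of tested members follows each list's name, and the red points are EGR1, FOS, FOSB, DUSP5, CCN1 and CCN2, with FOSB in 2 lists.

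Array medians ran from 48.9 to 75 signal units, 12130 to 14314 probes were detected per array and replicates correlated at 0.958 to 0.993. The line's own genes KRT8, KRT18, VIM, CDH2, NEFL and NEFM were detected on 15 of 15 arrays, with NEFL at 0.35 and KRT8 at 0.18 (log2 difference, neither passing). Of the fibroblast markers, COL1A2, COL3A1, DCN, LUM and PDGFRB were detected on none of the 15, COL1A1 on 7 (0.22) and PDGFRA on 12 (0.02). Of the blood cell markers, PTPRC, CD3E, LYZ and HBB were detected on none and CD14 on 11 (-0.02). CD68 was detected on every one of the 15 and differed by 0.13. The human GNRHR probe, which does not measure the rat transgene, was detected on none of the 55 arrays. CGA, the alpha subunit of the gonadotropins, was detected on none of the 15, and PITX1, a pituitary transcription factor, differed by 0.01. In bulk cultures, fewer cells of a type and less RNA per cell cannot be told apart.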

How the data were processed

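Each RNA sample was hybridised to an Illumina HumanHT-12 v3 array. The table of non-normalized intensity values that the authors deposited was used, with its detection p-value for each of 48803 probes, per the file headers; intensities were whole numbers on arrays of hybridisation batch 1 and decimals in batch 2. A second deposited table of normalized intensity ordered the probes of each array alike and served as an alternative. The scanner software's settings are not given in the sources used here.

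Intensities were background corrected (limma 3.58.1 in R 4.3.3, normexp with negative controls inferred from detection p-values, offset 16), quantile normalized and put on the log2 scale. Probes detected at p under 0.01 on at least 3 of the 15 arrays were kept (14794). Of these, 12759 had 1 gene symbol, 2 had several and 2033 had none, from a platform annotation with symbols updated to RefSeq. Means of 14 groups were fitted to all 55 arrays, which share 1 estimate of spread, with an intensity trend. Contrasts were 1 h minus 0 h controls averaged over lines, each line alone, their difference, and triptorelin at 1 h against 0 h in HEK293, adjusted by Benjamini-Hochberg over all probes. Intensities limit precision through the number of arrays. The script was tested on simulated data. The simulated noise was independent between arrays, with no replicate, batch or chip effect. That test therefore does not give the error rate for arrays that deviate together.

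Replicate numbers come from the sample titles. Deviations from group means of same-numbered 1 h and 0 h arrays correlated at 0.77, 0.41 and 0.12 in SCL60 (numbers 2, 3 and 4) and at 0.67, 0.34, 0.54 and 0.33 in HEK293. The highest correlation with another number was -0.19, 0.31 and 0.24 in SCL60 and 0.03, -0.08, 0.41 and 0.28 in HEK293. The numbers were taken to pair the arrays, although SCL60 number 4 correlated more with another number than with its own.

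Named genes were all that passed in the mean of both lines with a symbol and detection on every array of a control group, up to 5 in each direction from each line and from their difference, and, from each list, up to 4 passing members or otherwise up to 2 with the largest difference. List members that the rule did not name, genes called with the block but not without it, and values by pair were added after their values were seen. The members and lists were chosen with earlier results of these data known. Alternatives were cyclic loess, uncorrected background, the deposited normalized table, other filters on dim probes, 1 probe per gene, only the groups compared, blocks for replicate number, chip, labelling and hybridisation batch, and leaving out single arrays. A block within each line and leaving out the arrays of number 1 were chosen after seeing the data.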

Additional observations from a re-analysis of the deposited data

Results flagged for a closer look

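Of 28 groups of 4 arrays examined over the 7 called probes, 3 held an array far from its fellows by Dixon's 95% criterion, which chance meets in about 1 of 20 groups. CCN2 measured 7.82 (log2 intensity) in replicate 2 of the SCL60 0 h controls, and the next highest array of that group measured 6.69. CCN1 measured 6.49 in replicate 1 of the SCL60 0 h controls, below the next lowest value of 7.24. DUSP5 measured 7.55 in replicate 3 of the HEK293 cells given triptorelin for 1 h, above the next highest value of 6.66.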

How the results depend on the processing

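EGR1, CCN1 and DUSP5 passed the test in the mean of both lines under all 28, 28 and 27 alternatives run, and FOS and FOSB under 26 of 27 each. FOS and FOSB failed when only the 15 arrays were fitted (adjusted p 0.276 and 0.273). CCN2 passed under 12 of 28 (adjusted p up to 0.453) and C2orf42 under 15 of 28 (up to 0.325). All 7 kept their direction in the mean.

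The 6 rising probes in the mean became 2 under a filter for detection on all 15 arrays, 3 with only the groups compared, 13 with the replicate block or the labelling batch as a block, and 14 with the block within each line. The 1 falling probe became 2 with cyclic loess, the replicate block or the hybridisation or labelling batch, 3 with the block within each line, and 0 with no filter, only the groups compared or without the arrays of number 1. In SCL60 the 3 calls became 1 under the stricter filter or with only the groups compared and 6 with either replicate block. In HEK293 the 3 calls became 1 with no background correction, the authors' values, no filter or the stricter filter, 0 with only the groups compared or without number 1, and 7 with either block. For triptorelin in HEK293 the 1 call became 2 with no filter or the chip as a block, 5 with either block, and 0 with only the groups compared or without number 1.

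Leaving out single arrays gave 5 to 8 rising and 0 to 3 falling probes in the mean, 0 to 5 in SCL60, 0 to 3 in HEK293, 0 for the difference between lines and 0 to 1 for triptorelin in HEK293. The difference between lines changed sign for EGR1 (-0.92 to 0.70), FOS (-0.92 to 0.40), FOSB (-0.011 to 1.24) and DUSP5 (-0.02 to 0.63) on leaving out single arrays. The causes were not tested. Signals near background at 0 h limit the folds of FOS, FOSB and DUSP5.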
